A study of Homo sapiens with 4 samples.

Results

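The SOCS family of cytokine feedback genes held 9 of the 18789 m6A sites listed in C643 cells, and these lay in 2 of its 8 members. SOCS3 carried 7 sites, all in its 3′ UTR, and SOCS1 carried 2, both in its coding sequence (CDS). The members SOCS1 to SOCS7 and CISH were taken by gene name, and a site was counted where it fell in any annotated exon of a member on the same strand. No site was listed in SOCS2, SOCS4, SOCS5, SOCS6, SOCS7 or CISH, and 0 further sites lay in introns of the members or on the opposite strand within their bounds. Of the 20046 protein-coding genes of the annotation, 19.6% held a site, so that 2 of 8 members (25%, 95% Wilson interval 7.15 to 59.1) was close to the share among all genes.

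The sites come from miCLIP2 on polyadenylated RNA of untreated C643, an established human cell line from an anaplastic thyroid carcinoma. In miCLIP2 an antibody against N6-methyladenosine (m6A) is crosslinked to RNA fragments, and the crosslinked nucleotide is read from where the cDNA ends. The 1 group, C643 WT, had 3 biological replicates in 4 libraries, because replicate 1 was made as 2 technical libraries. The deposited list pools them and gives each site an m6Aboost prediction score and no read counts, so there is no spread between replicates, no depth per site, no control and no test. The list holds no expression values, so the labelled cell type could not be checked against markers, and a member without sites cannot be told apart from a member with too few reads.

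SOCS proteins switch off cytokine signalling. A cytokine brings its receptors together, the attached JAK kinases phosphorylate STAT transcription factors, and STATs in turn raise transcription of SOCS genes, whose products then act back on the receptor and the kinase. Each SOCS protein has an SH2 domain, which binds phosphorylated tyrosine, and a C-terminal SOCS box, which joins it to elongins B and C and cullin 5 in a ubiquitin ligase. The mRNAs are induced quickly and decay quickly, and in mouse T cells loss of the m6A methyltransferase METTL3 is known to slow the decay of several of them.

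The 9 sites are shown with 10 nt on either side, because each member's modified positions are too few to be summarised without them. The sequences are those of the GRCh38 transcripts, 5′ to 3′ on the minus strand, with the pentamer around the listed A in capitals. Distances are counted in nt from the first nucleotide of the stop codon, with negative positions upstream of it.

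SOCS1 CDS, position -305 (chr16:11255140-11255160): cgccagcgGAACTgctttttc
SOCS1 CDS, position -268 (chr16:11255103-11255123): tggcctcgGGACCcacgagca
SOCS3 3′ UTR, 130 nt downstream (chr17:78358280-78358300): aagagggcGGACAggcccctc
SOCS3 3′ UTR, 175 nt downstream (chr17:78358235-78358255): tggcaggcGGACCtggaatgt
SOCS3 3′ UTR, 346 nt downstream (chr17:78358064-78358084): actaatgaGAACTgccaggga
SOCS3 3′ UTR, 527 nt downstream (chr17:78357883-78357903): gatcctggTGACAtgctcctc
SOCS3 3′ UTR, 613 nt downstream (chr17:78357797-78357817): ctcctccgGGACAgtcaccga
SOCS3 3′ UTR, 963 nt downstream (chr17:78357447-78357467): aggctgagGGACTcactggag
SOCS3 3′ UTR, 1184 nt downstream (chr17:78357226-78357246): gagaggctGGACTgctgccac

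All 9 sites lay at DRACH, where D is any base but C, R is a purine and H is any base but G. It is the motif that the METTL3 complex prefers. The Wilson interval of this share is 70.1 to 100%. Over all host transcripts, 88.6% of exonic sites lay at DRACH. GG preceded the A at 6 of the 9 sites, and TGACA had the lowest listed share of the pentamers concerned, 1.59% of its occurrences in host transcripts. Sequence was an input of m6Aboost, so a motif at a listed site is partly set by the classifier.

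SOCS3 encodes an inhibitor of the JAKs bound to gp130 (IL6ST), the receptor subunit shared by the IL-6 cytokines. The gene lies on the minus strand of chromosome 17 between positions 78356778 and 78360077, and its 2734 nt transcript has 2 exons with the whole CDS of 678 nt in exon 2. All 7 sites fell in the 3′ UTR of exon 2. Their scores were, in order from the stop codon, 0.611, 0.809, 0.825, 0.611, 0.817, 0.891 and 0.868. The sites at 130 and 527 nt stood below the other 5, whose scores lay between 0.809 and 0.891. Neighbouring sites were 45, 171, 181, 86, 350 and 221 nt apart, against a median of 95 nt (quartiles 37 and 229) between neighbours in all host transcripts. The 7 sites were thus spread over 1054 nt of a 3′ UTR of 1640 nt rather than gathered at its start.

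Of the 29 DRACH motifs in the SOCS3 3′ UTR, 7 were listed (24.1%), where 9.05% of 3′ UTR motifs were listed over coding host transcripts. None of the 12 coding motifs was listed, which allows a share of up to 25% (3 counts of the 12). A coding motif in host transcripts with 1 coding exon was listed in 21.9% of cases. This lies just below that limit, so the 12 motifs cannot tell a like share from a lower one. Of these 12 motifs, 10 end in C, 1 in A and 1 in T. Whether the last base has a part in their absence from the list was not tested. DRACH motifs ending in C were listed in 3.27% of cases over all host transcripts, those ending in A in 4.91% and those ending in T in 15.1%, and among coding motifs of hosts with 1 coding exon those ending in C were listed in 9.18%. Of 246 coding host transcripts with 1 coding exon, 205 (83.3%) held a coding site, and SOCS3 was not among them. Of 921 coding hosts with 7 or more sites, 154 (16.7%) had all of them in the 3′ UTR, as SOCS3 did.

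GGACT, of which 25.8% were listed over all host transcripts, occurs 5 times in SOCS3, and the sites at 963 and 1184 nt are both GGACT. The other 3 were not listed. They are shown for comparison with the listed pair above, 2 of them from the 5′ UTR and the last from the CDS at codon 202 of 225.

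SOCS3 5′ UTR, unlisted (chr17:78360054-78360074): tccgacttGGACTccctgctc
SOCS3 5′ UTR, unlisted (chr17:78359859-78359879): tcctttgtGGACTtcacggcc
SOCS3 CDS, unlisted (chr17:78358481-78358501): ggccacctGGACTcctatgag

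The pentamer is the same in all 5, and the listed pair lies in the 3′ UTR while the other 3 lie upstream of the stop codon. No site at any pentamer was listed upstream of the SOCS3 stop codon. Because the transcript region was also an input of the classifier and read coverage was not analysed here, their part in this difference was not tested.

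**Figure D1:**
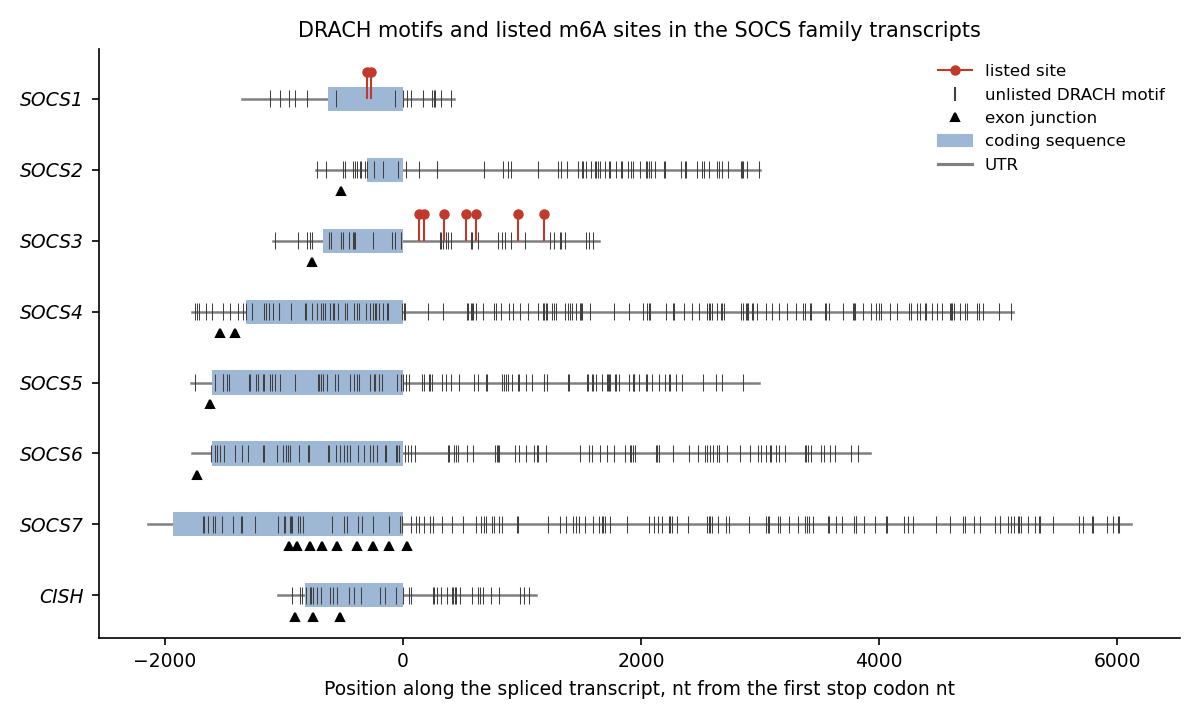
Transcripts of the 8 members drawn to scale along the spliced RNA (x axis, nt from the first nucleotide of the stop codon), with coding sequence as blue boxes, UTRs as grey lines, exon junctions as triangles, unlisted DRACH motifs as vertical ticks and listed sites as red pins. The 7 SOCS3 pins stand between 130 and 1184 nt downstream of the stop codon, the 2 SOCS1 pins lie in the coding sequence, and the other 6 transcripts have motifs and no pins.

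SOCS1 encodes the other member that inhibits JAK kinases directly, and it restrains interferon and interleukin signalling. The gene lies on the minus strand of chromosome 16 between positions 11254417 and 11256204. Its sites at positions 11255150 (GAACT, codon 110 of 211) and 11255113 (GGACC, codon 122) are 37 nt apart. The scores were 0.594 and 0.571, and 16.4% and 12.6% of the list scored lower. Both stood below the lowest score in SOCS3. Among all sites at the same pentamer the medians were 0.844 for GAACT and 0.734 for GGACC, and 7.59% and 12.6% of those sites scored below the ones in SOCS1. At a score of at least 0.7 SOCS1 held no site and SOCS3 held 5.

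Of the 5 coding DRACH motifs in SOCS1, 2 were listed, and none of the 8 motifs in its 3′ UTR or the 5 in its 5′ UTR. The longest supported transcript of SOCS1 is unspliced and 1784 nt long, and the canonical one of 1238 nt joins 2 exons. The CDS of 636 nt is the same in both, and in the canonical transcript the sites lie 379 and 416 nt from the junction. The 2 GGACT motifs of SOCS1 are in the part of the 5′ UTR that the canonical transcript lacks, and were not listed.

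Members without sites had many motifs. Their 6 transcripts held 589 DRACH motifs, 39 of them GGACT. That 0 were listed follows from how these members were grouped, so no limit is drawn from it. In SOCS1 and SOCS3 together 9 of 64 motifs were listed (14.1%, 7.58 to 24.6), against 7.29% over all host transcripts. At a score of at least 0.7 these shares were 5 of 64 (7.81%, 3.38 to 17.02) and 4.91%. SOCS1 and SOCS3 were grouped because they hold sites, as hosts are, so where the interval lies beside the host share is no test. Over all members 9 of 653 motifs were listed (1.38%, 0.727 to 2.60). Of these motifs 589 lie in members that are not hosts, so the host share is not a like value to set beside it. A share over the motifs of all protein-coding genes, with and without sites, is not given. The intervals here cover counting only, and motifs of 1 transcript are not independent. SOCS4, which lies on chromosome 14 and acts on EGF receptor signalling, had the most motifs of all members, 151. SOCS7, on chromosome 17, had 131, SOCS6, on chromosome 18, had 103 and SOCS5, on chromosome 2, had 96. SOCS2, which restrains growth hormone signalling and lies on chromosome 12, had 68. CISH, a STAT5 target on chromosome 3 that acts on the erythropoietin, IL-2 and IL-3 receptors, had 40. SOCS1 had the fewest of all, 18, so the members with sites were not those with the most motifs.

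The members differ widely in base composition, and so does the share of genes with a site. SOCS4, SOCS6 and SOCS5 had a GC content of 35.4%, 37.0% and 37.5%. Among protein-coding genes within 2.5 percentage points of each, 6 of 1455 (0.412%), 20 of 2426 (0.824%) and 27 of 2710 (0.996%) held a site. SOCS3 at 59.99% and SOCS1 at 69.1% stood at GC contents where 40.4% and 36.6% of genes held one. CISH (58.6%) and SOCS7 (53.5%) also stood among genes of which 39.5% and 30.9% held a site, and had none. SOCS2 depended on the isoform: its longest supported transcript had 47.3% GC, where 11.9% of genes held a site, and its canonical transcript had 41.8%, where 139 of 4058 (3.43%) did. Over all protein-coding genes the median GC content was 57.1% (quartiles 52.4 and 61.2) with a site and 46.6% (41.2 and 54.4) without. Whether GC content itself, the number of reads or the classifier accounts for these shares was not tested.

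**Figure D2:**
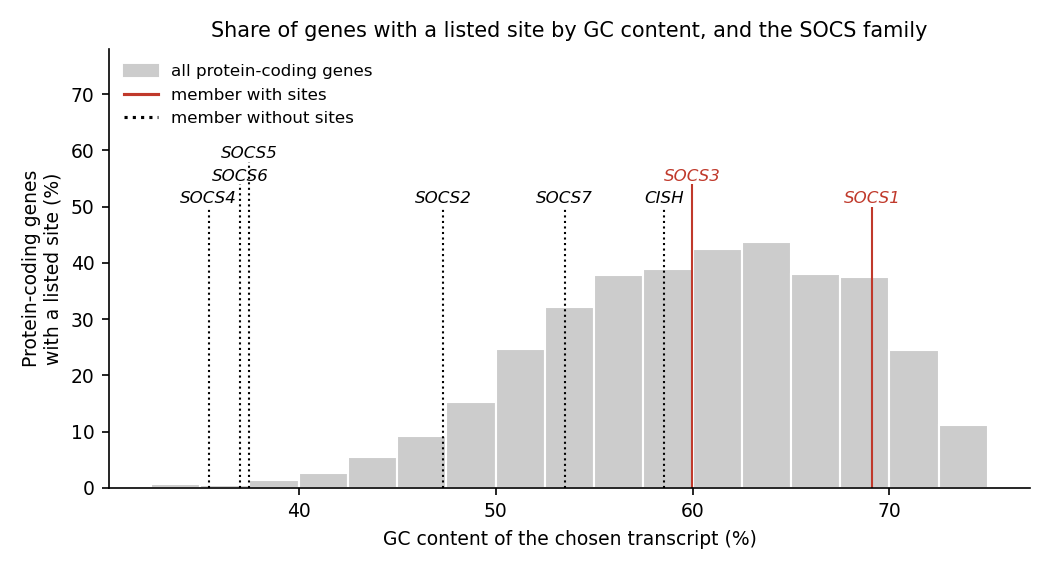
Share of protein-coding genes with a listed site (grey bars, y axis in percent) by GC content of the chosen transcript (x axis in percent, bins of 2.5 percentage points with at least 20 genes), with lines at the GC content of each member, red for SOCS1 and SOCS3 and dotted black for members without sites. The heights of the lines carry no value. SOCS4, SOCS5 and SOCS6 stand in the bin where 0.417% of genes have a site, SOCS5 at its upper edge, and CISH stands close to SOCS3.

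Members were then compared by the structure of their coding sequence, since coding m6A is scarce close to exon junctions. By the longest supported transcript, 6 members (SOCS1 to SOCS6) had the whole CDS in 1 exon and CISH and SOCS7 had a CDS spliced from 3 and 9 exons. Of the 6, 2 held sites (33.3%, 9.68 to 70.0), and of the spliced pair neither did. Among all protein-coding genes, 11.4% of those with 1 coding exon held a site and 21.1% of those with a spliced CDS. SOCS2 depends on the isoform: its longest supported transcript has a CDS of 309 nt in 1 exon, and its canonical transcript has one of 597 nt in 2 exons. With canonical transcripts 2 of 5 members with 1 coding exon and 0 of 3 with a spliced CDS had sites.

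Counted over coding motifs, 2 of 123 were listed in members with 1 coding exon (1.63%, 0.447 to 5.74) and 0 of 44 in members with a spliced CDS (Wilson upper bound 8.03%). The intervals overlap each other. Host transcripts, which by definition hold a site, had 21.9% of coding motifs listed with 1 coding exon, 5.74% with a spliced CDS and 6.29% in all. The first member interval lies below the 21.9% and the 6.29%, and the second includes the 5.74%, but 4 of the 6 members with 1 coding exon and both spliced members hold no site and are not hosts. In SOCS1 and SOCS3 alone, the hosts among them, 2 of 17 coding motifs were listed (11.8%, 3.29 to 34.3), and this interval includes the 21.9%. SOCS1 is a host only through these 2 sites, so where the interval lies is no test. Only 29 coding motifs of the family lay within 100 nt of a junction, 18 of them in SOCS7, 10 in CISH and 1 in SOCS5, and 0 were listed. SOCS4, SOCS5 and SOCS6 each had 34 coding motifs and SOCS3 had 12, all but 1 of them farther than 100 nt from a junction, and none of these was listed either. An uninterrupted coding exon was shared by members with and without sites. Whether it has a part in which members hold sites was not tested.

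The coding sites of SOCS1 were set beside the same codons of its relatives by aligning the translated CDS of the canonical transcripts. For SOCS2 this differs from the longest supported transcript used for the counts above and in the transcript map, in which the stretch aligned here lies in the 5′ UTR. At the codon of position 11255150, 3 of the 7 relatives also have a DRACH motif at the same base, and none was listed. The SOCS1 window and theirs are shown because the SOCS5 motif is a GGACT.

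SOCS1, listed (chr16:11255140-11255160, minus strand): cgccagcgGAACTgctttttc
SOCS2, unlisted (chr12:93574808-93574828, plus strand): tcgcattcAGACTacctacta
SOCS4, unlisted (chr14:55043981-55044001, plus strand): gcacaggaAGACTatttattc
SOCS5, unlisted (chr2:46759755-46759775, plus strand): gcgcaagaGGACTacctcttc

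In SOCS3, the other member with sites, the aligned pentamer is GCGCC, which holds no DRACH. At the codon of position 11255113, SOCS2 alone among the 7 relatives has a DRACH motif (GGACC, in the canonical CDS), and it was not listed. SOCS3 has a GGACC 1 nt away from the aligned base, at position 78358828, and that was not listed either. The translated SOCS3 and SOCS1 were identical at 36.0% of 164 aligned codons, and SOCS1 and CISH at 36.9% of 195. Because SOCS1 alone held coding sites, no relative could have been listed at these codons. The alignment thus shows only where the motifs themselves are shared.

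The median score of the 9 sites was 0.809 (lowest 0.571, highest 0.891), beside 0.754 (quartiles 0.640 and 0.847) for the whole list. The SOCS3 median was 0.817, beside 0.816 for all 3′ UTR sites at DRACH, and both SOCS1 scores stood below 0.716, the median of coding sites at DRACH. Of the SOCS3 sites, 4 scored above the median of their own pentamer and 3 below. The most confident was the GGACT at position 78357457, with 86.8% of the list below it. Of the 9 sites, 2 were no farther than 200 nt from the stop codon (22.2%, 6.32 to 54.7), beside 33.5% of the DRACH sites of all coding hosts.

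**Figure D3:**
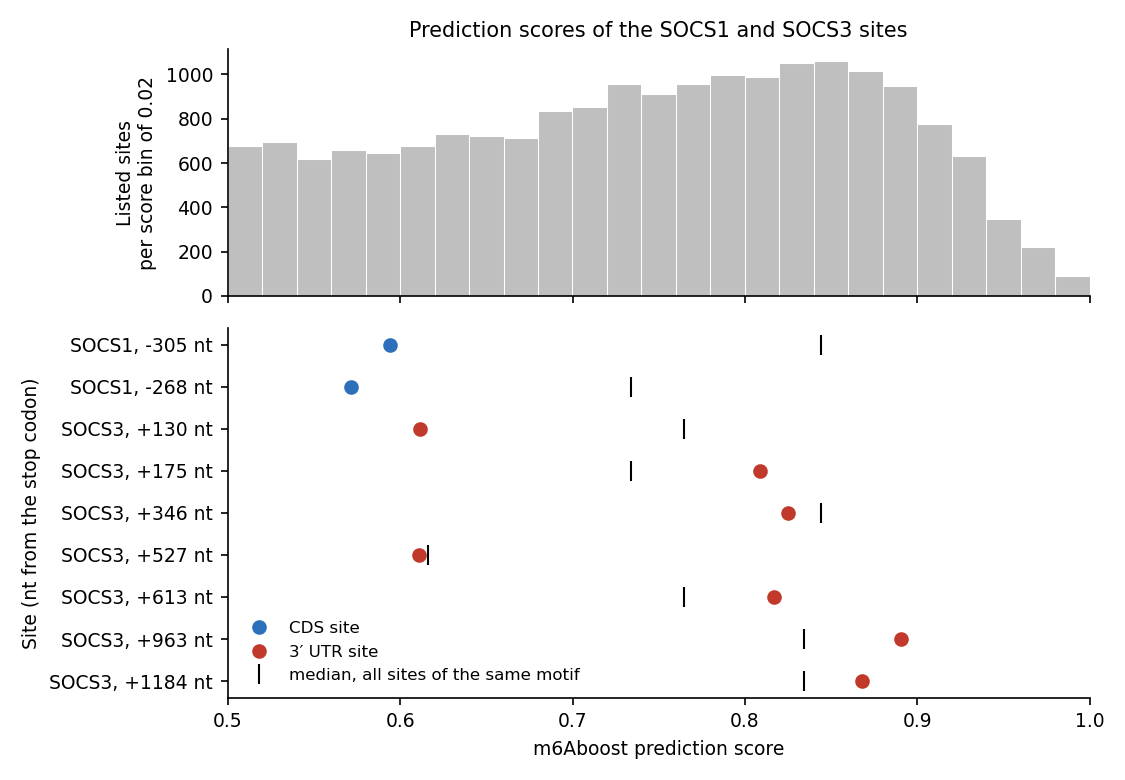
Top, number of listed sites by m6Aboost prediction score (x axis) in bins of 0.02 over the whole list of 18789 sites. Bottom, the score of each SOCS1 and SOCS3 site (points, blue in the CDS and red in the 3′ UTR, labelled by nt from the stop codon) with the median score of all sites at the same pentamer (black bars). Both SOCS1 points lie left of their bars, at 0.594 and 0.571.

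In number of sites SOCS3 stood high among hosts, since 931 of 3713 host transcripts (25.1%) had 7 or more and 78.9% had 2 or more. Per length, SOCS3 held 2.56 sites per kb and SOCS1 1.12, beside a median of 1.31 (quartiles 0.638 and 2.39) over hosts. The genes whose site positions were most like those of SOCS3, after scaling each 5′ UTR, CDS and 3′ UTR to the same length, were SLC25A29, TNIP1 and SHPK. Their Kolmogorov-Smirnov distances to SOCS3 were 0.185, 0.186 and 0.187, as the lowest among 1425 coding hosts with at least 5 sites. SLC25A29 had 14 of 17 sites in the 3′ UTR, TNIP1 9 of 10 and SHPK 12 of 13.

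Around the SOCS genes, 21 of 73 genes of a list of the JAK-STAT pathway and of SOCS box proteins held sites (28.8%, 19.7 to 40.0), beside the 19.6% of all protein-coding genes. The list was chosen with earlier results of these data known, so where its interval lies beside that share is no test. Ligands held them in 3 of 6 genes: LIF, an IL-6 family cytokine that signals through gp130, had 20 sites, 18 in the 3′ UTR and 2 in the CDS, and IL11 and CLCF1 of the same family had 4 and 3. Of the 19 receptors 4 held sites. IL4R, the α chain of the IL-4 and IL-13 receptors, had 24, 15 in the 3′ UTR and 9 in the CDS, and IFNGR2, IL10RB and EPOR had 1 each. The gp130 subunit IL6ST, on which SOCS3 acts, had none.

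Among the 4 JAK kinases TYK2 alone held sites, 4 in number. Of the 7 STATs, 3 did: STAT6, which IL4R activates, had 6, and STAT2 and STAT5B had 1 each. The other negative regulators held sites in 2 of 9 genes, PIAS4 with 3 and SH2B3 with 2. Of the subunits of the ubiquitin ligase that SOCS proteins join, RNF7 had 5 and ELOB, ELOC and CUL5 had none. Other SOCS box proteins held sites in 7 of 24 genes, with ASB6 at 12, SPSB2 at 10, SPSB1 at 9 and ASB1 at 7. SOCS3 with 7 sites thus stood level with ASB1 and below LIF, IL4R, ASB6, SPSB2 and SPSB1.

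**Figure D4:**
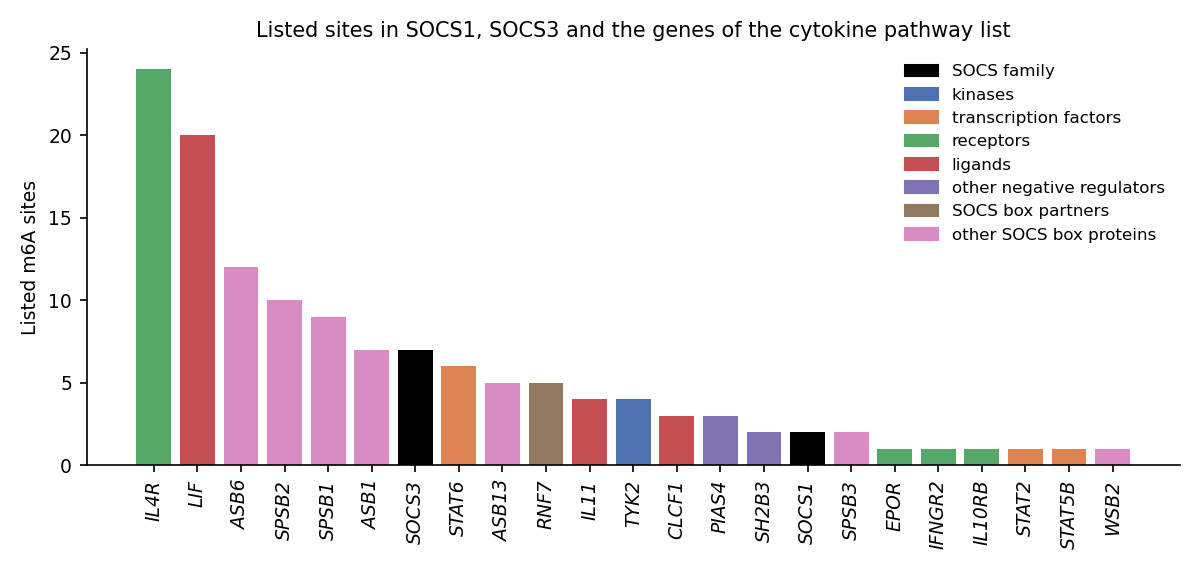
Number of listed m6A sites (y axis) in SOCS3 and SOCS1 (black bars) and in the 21 genes of the pathway list that held at least 1 site, coloured by role. IL4R with 24 and LIF with 20 sites stand above all others, and SOCS3 stands at 7.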

How the data were processed

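miCLIP2 was performed on untreated C643 cells (3 replicates, 4 libraries). According to the labels and the methods of the study, the authors mapped reads to GRCh38.p12 with STAR 2.7.3a, removed duplicates with UMI-tools 1.0.0, called peaks per replicate with PureCLIP, kept those found in more than 1 replicate, and classified peaks at A with m6Aboost. The deposited list holds the sites predicted as modified, with a score that is a fraction between 0.5 and 1. Region, sequence, relative signal and the number of C-to-T changes in reads that passed the crosslink shaped each score.

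Here sites were placed on GENCODE release 44 (GRCh38, a later release than that of the study). All 17818 sites exonic in a chosen transcript lay on an A. The chosen transcript was the longest coding one whose GENCODE support level, where given, was 3 or better and whose annotation level was 2 or better. The stop codon was counted as CDS. Codons were aligned in canonical transcripts. Shares have 95% Wilson intervals, and no test was made. Members and lists were chosen with earlier results of these data known. The comparisons by GC content, last motif base and aligned codons, and the unlisted GGACT windows, were added after the values were seen. Every member is named, all sites are given, and the genes most like SOCS3 are the 3 with the smallest distance. Placement was tested on simulated data: of 8306 sites planted on 1000 transcripts, 8305 were recovered. Python 3.11.15, numpy 2.4.6, Biopython 1.88 and matplotlib 3.10.9 were used. Alternatives changed the score threshold, transcript, exons, motif and windows.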

Additional observations from a re-analysis of the deposited data

How the results depend on the processing

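Of 24 alternatives for 11 results, 18 stayed within the interval of the value, within its spread over sites or within 1.5 times a count, and 6 moved. A score of at least 0.7 left 5 sites in 1 member, SOCS3, so that the share of sites in the CDS went from 22.2% to 0%, the share in the 3′ UTR from 77.8% to 100%, and the share of coding motifs listed in members with 1 coding exon from 1.63% to 0%. This follows from the loss of both SOCS1 sites. A window of 400 nt around the stop codon raised the share near it from 22.2% to 55.6%, because it takes in the SOCS1 sites and the SOCS3 site at 346 nt. The share of motifs listed in SOCS1 and SOCS3 fell from 14.1% to 7.81% at a score of at least 0.7, which its interval still includes. Canonical transcripts, RAC in place of DRACH and host exons alone moved none of the results they were run for. Some of the 18 could not have moved. RAC takes in every DRACH, so a share of 100% stays, and all sites of the members were at DRACH already. A share of 0% also stays at a higher score or in a narrower junction window. With 9 sites every share is imprecise, and the depth behind a site is unknown. Replicates could not be left out because the list pools them. No paired analysis was possible because all libraries belong to 1 group and were pooled.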
